A study of Rattus norvegicus with 24 samples.

Results

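Calca, Tac1 and Trpv1 are 3 genes that mark nociceptors, the sensory neurons that respond to harmful heat, pressure and chemicals. They were taken by Ensembl identifier, ENSRNOG00000011130 for Calca, ENSRNOG00000007374 for Tac1 and ENSRNOG00000019486 for Trpv1, and make up 3 of the 24613 gene regions counted. Nociceptors have their cell bodies in the dorsal root ganglia (DRG), beside the spinal cord, and send 1 branch to skin, muscle or viscera and the other into the dorsal horn. Calca encodes calcitonin and, by the splicing used in neurons, calcitonin gene-related peptide (CGRP), which dilates blood vessels where it is released and acts on dorsal horn neurons. Tac1 encodes the precursor of substance P and neurokinin A, peptides that many CGRP neurons also hold, and Trpv1 encodes the cation channel that opens to capsaicin, noxious heat and protons.

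RNA with a poly-A tail was sequenced from whole DRG of 24 adult female Sprague Dawley rats, 8 to 9 weeks old when obtained, with 1 library per rat. In each rat the ganglia of both sides from T11 to L4, caudal to the injury, were pooled, so the values average over segments, sides and cell types. The 4 No SCI rats were naive and uninjured, with no operation described. The 6 CONT SCI rats received a 25 g-cm contusion at T2, and tissue of both groups was collected at 11.5 weeks. Laminectomy and post-operative care are described for injured rats only. They cannot be told apart from the injury itself in comparisons with No SCI. The 4 TX SCI rats had the cord cut completely at T2, and their tissue was collected at 8.5 weeks. The same 25 g-cm contusion was followed in 5 rats by swimming (CONT SCI + SWIM) and in 5 rats by walking in shallow water (CONT SCI + SWW). Training lasted 10 weeks, with 5 days a week from week 2.5, and tissue of these rats was collected at 13.5 weeks. All rats, No SCI included, lived in small cages that restricted locomotion. They were doubly housed with rats of the same group. The labels do not give the cages, so the tests treat cage mates as independent rats. Time of collection and group cannot be told apart, except where groups share a time, as No SCI and CONT SCI do and as the exercised groups do.

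The counts per library summed to a median of 30079060.5 in No SCI, 32731949 in CONT SCI, 28132902 in TX SCI, 25550757 in CONT SCI + SWIM and 28141769 in CONT SCI + SWW, with extremes of 16086670 in CONT SCI + SWIM replicate 2 and 38730307 in TX SCI replicate 3. Levels are given as CPM, counts brought to a common library size with the trimmed mean of M values (TMM). Calca had between 18541 and 44245 counts in a library, Tac1 between 4810 and 10809 and Trpv1 between 4037 and 10431. At these depths the counting error of a single library was at most 0.734% for Calca, 1.44% for Tac1 and 1.57% for Trpv1, far under the spread between rats. In No SCI, replicate 3 had the lowest mean correlation with its own group over all genes (r = 0.991), and its most abundant gene took 2.14% of the counts. In CONT SCI the same held for replicate 4 (r = 0.989, 2.61%). In TX SCI replicate 1 had the lowest correlation (r = 0.990) and the lowest total of its group, 20040086 counts.

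TX SCI had the lowest mean level of all 3 genes and CONT SCI + SWW the highest. For Trpv1, CONT SCI + SWW led No SCI by a log2 fold change of only 0.02. This lead changed sign without No SCI replicate 3 (−0.067) or CONT SCI + SWW replicate 5 (−0.018). The highest group mean was 1.25 times the lowest for Calca, 1.22 times for Tac1 and 1.25 times for Trpv1. Each gene was compared in the 10 pairs of groups by edgeR's quasi-likelihood test, with p-values adjusted by the Benjamini-Hochberg method over all genes tested and a threshold of 0.05, and all 3 genes passed the filter on low counts. Of 30 values, 6 passed, and all 6 were lower in TX SCI, in comparisons where between 14.4% and 40.4% of all genes passed in either direction. Of the 18 values in pairs without TX SCI, 0 passed with edgeR and 0 with DESeq2, and 2 had an unadjusted edgeR p under 0.05, in comparisons where between 2.99% and 43.0% of all genes passed. Whole ganglia were sequenced, so fewer nociceptors, less of these transcripts per nociceptor and a larger share of RNA from other cells cannot be told apart.

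**Figure D1:**
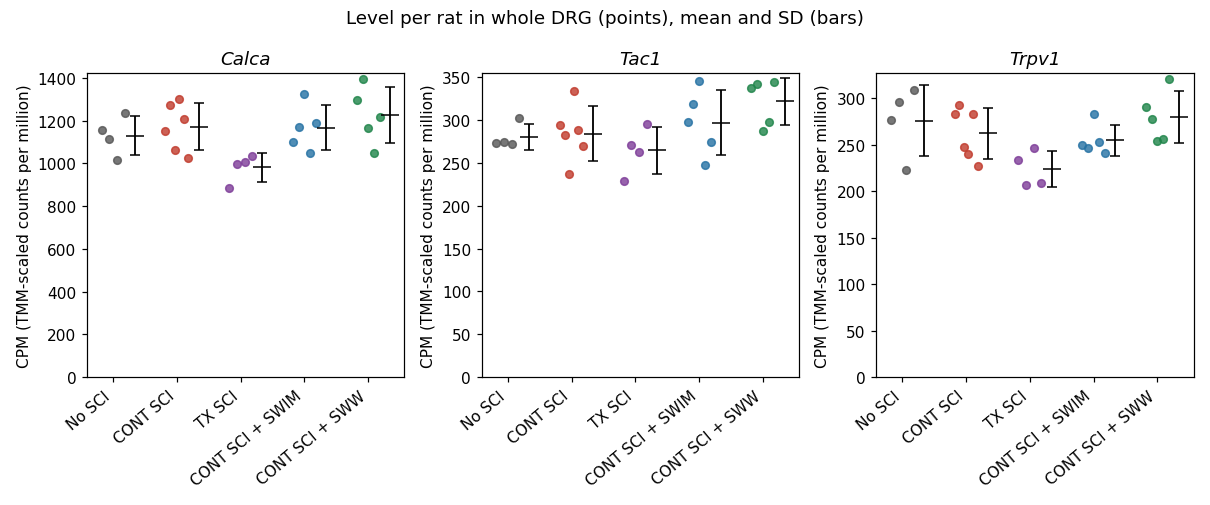
Level of Calca, Tac1 and Trpv1 in CPM (vertical axes, from 0) in each rat of the 5 groups (points), with the group mean and SD beside them (bars). TX SCI has the lowest mean in each panel, 982 CPM for Calca, 264.8 for Tac1 and 224 for Trpv1.

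Calca, the CGRP gene, was at 1158, 1113, 1016 and 1234 CPM in No SCI replicates 1 to 4. In the 6 CONT SCI rats its lowest, median and highest levels were 1027, 1180 and 1300 CPM. In TX SCI replicates 1 to 4 it was at 885, 998, 1008 and 1037 CPM. All but 1 of the 4 TX SCI rats were below every No SCI rat and every CONT SCI rat, and the exception, replicate 4, exceeded only No SCI replicate 3 and the lowest CONT SCI rat. Calca was at 1102, 1171, 1324, 1048 and 1190 CPM in CONT SCI + SWIM replicates 1 to 5. It was at 1298, 1397, 1167, 1050 and 1218 CPM in CONT SCI + SWW replicates 1 to 5. Every rat of both exercised groups was above every TX SCI rat, although the lowest swimming rat and the highest TX SCI rat were close, at 1048 and 1037 CPM.

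From highest to lowest, the group means of Calca were those of CONT SCI + SWW (1226 ± 132 CPM, SD, n = 5), CONT SCI (1171 ± 110, n = 6), CONT SCI + SWIM (1167 ± 105, n = 5), No SCI (1130 ± 91.1, n = 4) and TX SCI (982 ± 66.9, n = 4). No neighbours in this order differed by the test, including No SCI and TX SCI (log2 fold change −0.19, SE 0.0816, 95% interval −0.36 to −0.01, edgeR adjusted p = 0.0853). TX SCI was lower than CONT SCI (−0.23, SE 0.0749, interval −0.39 to −0.07, edgeR adjusted p = 0.0219), with 4 of 4 TX SCI rats below the CONT SCI mean. It was lower than CONT SCI + SWIM (−0.25, SE 0.0842, interval −0.43 to −0.08, edgeR adjusted p = 0.0462) and than CONT SCI + SWW (−0.32, SE 0.0843, interval −0.49 to −0.15, edgeR adjusted p = 0.00886). In percent, Calca was changed by −14.8%, −16.0% and −19.9% in TX SCI relative to these 3 groups.

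The difference of Calca from CONT SCI + SWW passed in all 9 refits that left out a rat, with edgeR adjusted p from 0.00367 to 0.0334. The difference from CONT SCI did not pass without TX SCI replicate 1 (−0.20, edgeR adjusted p = 0.0651). It passed without No SCI replicate 3 and CONT SCI replicate 4 (−0.20, edgeR adjusted p = 0.0237), a setting chosen after seeing the data, in which the difference from No SCI passed as well (−0.23, edgeR adjusted p = 0.0233). The difference from No SCI also passed without No SCI replicate 3 alone (−0.23, edgeR adjusted p = 0.0399). The difference from CONT SCI + SWIM was close to the threshold and did not pass in 7 of 9 refits, nor without a filter on low counts (−0.25, edgeR adjusted p = 0.0579). Among these, the log2 fold change was −0.27 without CONT SCI + SWIM replicate 1, −0.25 without replicate 2, −0.22 without replicate 3 and −0.25 without replicate 5, with edgeR adjusted p of 0.0515, 0.0753, 0.0886 and 0.0789. It was −0.21 without TX SCI replicate 1, −0.26 without replicate 2 and −0.26 without replicate 3, with edgeR adjusted p of 0.125, 0.0804 and 0.0672.

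Tac1, the substance P gene, was at 273, 274, 272 and 303 CPM in No SCI replicates 1 to 4. In CONT SCI its lowest, median and highest levels were 237, 286 and 334 CPM. In TX SCI replicates 1 to 4 it was at 229.5, 271, 263 and 296 CPM. TX SCI and CONT SCI overlapped widely, with only TX SCI replicate 1 below every CONT SCI rat, while 3 of 4 TX SCI rats were below every No SCI rat. Tac1 was at 298, 319, 346, 248 and 275 CPM in CONT SCI + SWIM replicates 1 to 5. It was at 337, 342, 287, 298 and 344.5 CPM in CONT SCI + SWW replicates 1 to 5. All 5 CONT SCI + SWW rats were above the means of No SCI and CONT SCI, and 3 of 4 TX SCI rats were below every CONT SCI + SWW rat, with replicate 4 the exception.

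For Tac1 the group means, from highest to lowest, were those of CONT SCI + SWW (321.9 ± 27.1 CPM, SD, n = 5), CONT SCI + SWIM (297 ± 38.1, n = 5), CONT SCI (284.4 ± 31.8, n = 6), No SCI (280.5 ± 14.9, n = 4) and TX SCI (264.8 ± 27.3, n = 4). No neighbours in this order differed by the test. The extremes did, with Tac1 lower in TX SCI than in CONT SCI + SWW (−0.28, SE 0.0938, interval −0.47 to −0.09, edgeR adjusted p = 0.0340), or −17.7% in percent. That difference did not pass without CONT SCI + SWW replicate 1, 2 or 5, where it was −0.26 each time, with edgeR adjusted p of 0.0699, 0.0735 and 0.0704. It did not pass either without TX SCI replicate 1 (−0.21), 2 (−0.29) or 3 (−0.27), with edgeR adjusted p of 0.118, 0.0560 and 0.0794. Tac1 in CONT SCI + SWW against CONT SCI had a log2 fold change of 0.18 (SE 0.0831, interval 0.01 to 0.36, unadjusted p = 0.0374, edgeR adjusted p = 0.0786). It passed without CONT SCI replicate 4 (0.24, edgeR adjusted p = 0.0193) and without CONT SCI + SWW replicate 3 (0.22, edgeR adjusted p = 0.0489).

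Trpv1, the capsaicin receptor gene, was at 277, 296, 223 and 309 CPM in No SCI replicates 1 to 4. In CONT SCI its lowest, median and highest levels were 227.5, 265 and 292 CPM. In TX SCI replicates 1 to 4 it was at 234, 207, 247 and 208.5 CPM. All 4 TX SCI rats were below the No SCI mean, but 2 of them were above No SCI replicate 3, the lowest of its group. Trpv1 was at 250.2, 246, 283.5, 253 and 241 CPM in CONT SCI + SWIM replicates 1 to 5. It was at 290.2, 278, 254, 256.5 and 321 CPM in CONT SCI + SWW replicates 1 to 5. TX SCI overlapped the swimming group through its replicate 3 and did not overlap CONT SCI + SWW.

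The order of the group means of Trpv1, highest first, was CONT SCI + SWW (279.9 ± 27.6 CPM, SD, n = 5), No SCI (276.1 ± 37.9, n = 4), CONT SCI (262.4 ± 27.4, n = 6), CONT SCI + SWIM (254.9 ± 16.6, n = 5) and TX SCI (224 ± 19.7, n = 4), and again no neighbours differed by the test. TX SCI was lower than No SCI (−0.29, SE 0.102, interval −0.50 to −0.07, edgeR adjusted p = 0.0405) and than CONT SCI + SWW (−0.32, SE 0.0907, interval −0.51 to −0.13, edgeR adjusted p = 0.0133), or −17.9% and −20.0% in percent. Against CONT SCI the log2 fold change was −0.21 (SE 0.0938, interval −0.40 to −0.01, edgeR adjusted p = 0.0918), and it passed without CONT SCI replicate 6 (−0.26, edgeR adjusted p = 0.0353), in a fit of all 24 samples (−0.22, edgeR adjusted p = 0.0450) and without No SCI replicate 3 and CONT SCI replicate 4 (−0.23, edgeR adjusted p = 0.0244). Against CONT SCI + SWIM it was −0.19 (edgeR adjusted p = 0.166).

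The Trpv1 difference between TX SCI and No SCI was −0.37 without No SCI replicate 3, with edgeR adjusted p = 0.00572, and −0.37 without No SCI replicate 3 and CONT SCI replicate 4, with edgeR adjusted p = 0.00359. It did not pass without No SCI replicate 1 (−0.27), 2 (−0.25) or 4 (−0.23), with edgeR adjusted p of 0.0923, 0.107 and 0.129, nor without TX SCI replicate 2 (−0.25) or 4 (−0.26), with edgeR adjusted p of 0.110 and 0.0949. The difference from CONT SCI + SWW did not pass without TX SCI replicate 2 (−0.29, edgeR adjusted p = 0.0506) or replicate 4 (−0.30, edgeR adjusted p = 0.0530).

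**Figure D2:**
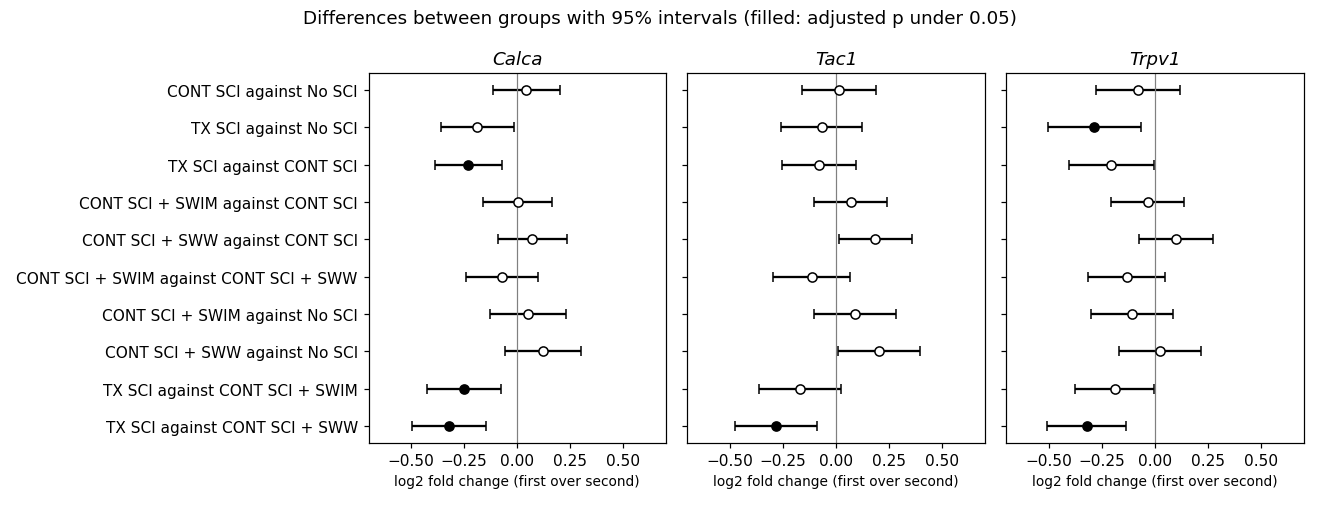
Log2 fold change (horizontal axes, first-named over second-named group) of Calca, Tac1 and Trpv1 in the 10 pairs of groups (vertical axis), as points with 95% intervals, filled where the edgeR adjusted p was under 0.05. The 6 filled points all lie below 0 in comparisons with TX SCI, between −0.23 and −0.32.

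The share of all genes that passed each comparison gives the background for these counts. Contusion without exercise, with its surgery and care, was addressed by CONT SCI against No SCI, both from 11.5 weeks. There, 0 of 3 genes passed and 10.4% of the 15126 genes tested did. The log2 fold changes were 0.04 for Calca (interval −0.11 to 0.20), 0.01 for Tac1 (−0.16 to 0.19) and −0.08 for Trpv1 (−0.28 to 0.12). Trpv1 was at −0.17 without No SCI replicate 3 and −0.024 without No SCI replicate 4. Calca changed sign without No SCI replicate 3 (−0.00076), and Tac1 did so in 3 of 10 refits that left out a rat, down to −0.038. With all rats none of the 3 genes had an unadjusted edgeR p under 0.05, and DESeq2 called 0.

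Injury severity was addressed by the comparisons of TX SCI with No SCI and CONT SCI, which share the TX SCI libraries. Against No SCI 1 of 3 genes passed, Trpv1, where 34.8% of all genes passed and 17.3% were lower in TX SCI. Against CONT SCI 1 of 3 passed, Calca, where 40.4% of all genes passed and 20.6% were lower in TX SCI. A count of 1 of 3 is near the share of all genes that passed in either direction. Side by side, the log2 fold changes against No SCI and CONT SCI were −0.19 and −0.23 for Calca, −0.07 and −0.08 for Tac1 and −0.29 and −0.21 for Trpv1, while the median over all genes was 0.03 and 0.01. Leaving out 1 rat moved the Tac1 values to between −0.13 and −0.013 against No SCI and between −0.15 and −0.030 against CONT SCI. Larger absolute changes were found against No SCI in 53.85% of all genes for Calca, 81.9% for Tac1 and 37.7% for Trpv1. Against CONT SCI these shares were 46.5%, 79.9% and 51.1%. The median absolute change over all genes was 0.208 against No SCI and 0.212 against CONT SCI.

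Exercise after contusion was addressed by the comparisons of each exercised group with CONT SCI, which they share. With swimming 0 of 3 genes passed, where 32.1% of the 15179 genes tested did, and the log2 fold changes were 0.0021 for Calca (interval −0.16 to 0.16), 0.07 for Tac1 (−0.10 to 0.24) and −0.03 for Trpv1 (−0.21 to 0.14). For Calca the group means in CPM, 1167 with swimming and 1171 in CONT SCI, lie in the opposite order to this fold change, so no direction is given for it. With 1 rat left out Tac1 ran from 0.012 to 0.13, and Trpv1 changed sign without CONT SCI replicate 2 (0.029). With shallow water walking 0 of 3 passed, where 43.0% of all genes did, and the values were 0.07 for Calca (−0.09 to 0.23), 0.18 for Tac1 and 0.10 for Trpv1 (−0.07 to 0.27). Leaving out 1 rat moved Calca to between 0.021 and 0.12 and Trpv1 to between 0.059 and 0.15. Between the exercised groups, both from 13.5 weeks, 0 of 3 passed, where 2.99% of all genes did. This share rests on 454 genes, a count that ran from 123 to 811 when 1 rat was left out and was 821 with DESeq2. The changes in CONT SCI + SWIM relative to CONT SCI + SWW were −0.07 for Calca (−0.24 to 0.10), −0.11 for Tac1 (−0.30 to 0.07) and −0.13 for Trpv1 (−0.32 to 0.05). With 1 rat left out they ran from −0.12 to −0.018, from −0.18 to −0.055 and from −0.17 to −0.064.

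Against No SCI 0 of 3 genes passed in CONT SCI + SWIM, where 28.1% of all genes did, and 0 of 3 in CONT SCI + SWW, where 22.9% did. Swimming rats differed from No SCI by 0.05 for Calca, 0.09 for Tac1 and −0.11 for Trpv1. With 1 rat left out these ran from 0.0024 to 0.097, from 0.031 to 0.15 and from −0.20 (without No SCI replicate 3) to −0.051. The SWW rats differed from No SCI by 0.12 for Calca, 0.20 for Tac1 (interval 0.01 to 0.40, unadjusted p = 0.0390, edgeR adjusted p = 0.121) and 0.02 for Trpv1. With 1 rat left out Calca ran from 0.070 to 0.17, and Trpv1 changed sign without No SCI replicate 3 (−0.067) or CONT SCI + SWW replicate 5 (−0.018). A fit with only these 2 groups called Tac1 (0.21, edgeR adjusted p = 0.0354). Over the 18 values without TX SCI, the 95% intervals reached from −0.32 to 0.40 on the log2 scale, or from −19.6% to 31.5%, so larger changes of these genes were outside every such interval.

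TX SCI was set against the exercised groups in a fit of all 24 samples to complete the order of the groups. Against CONT SCI + SWIM 1 of 3 genes passed, Calca, where 14.4% of the 15247 genes tested did and 6.95% were lower in TX SCI, and Calca alone did not overlap, as 15.9% of all genes did not. Against CONT SCI + SWW all 3 passed, where 22.0% of all genes did and 9.99% were lower in TX SCI, and 2 of 3, Calca and Trpv1, did not overlap, as 18.5% of all genes did not. In refits that left out a rat, Calca against CONT SCI + SWIM did not pass in 7 of 9. Against CONT SCI + SWW, Tac1 did not pass in 6 of 9 and Trpv1 in 2 of 9, while Calca passed in all 9. TX SCI and the exercised groups were collected 8.5 and 13.5 weeks after injury, the widest interval in the study. The median log2 fold change was 0.03 over all genes in both comparisons, and the median absolute change was 0.138 and 0.155. For the 3 genes the median log2 fold change was −0.19 against CONT SCI + SWIM and −0.32 against CONT SCI + SWW. Against CONT SCI + SWIM, larger absolute changes were found in 26.9% of all genes for Calca, 42.5% for Tac1 and 37.7% for Trpv1. Against CONT SCI + SWW these shares were 22.0%, 26.4% and 21.8%.

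The distance between the highest and lowest group mean was 0.32 on the log2 scale for Calca, 0.28 for Tac1 and 0.32 for Trpv1, against a median of 0.37 over 15247 genes. It was smaller than this in 41.4%, 35.3% and 42.0% of those genes, so the 3 genes were of ordinary range across the groups. Their spread between rats of a group was on the high side. The pooled SD within groups was 0.132 on the log2 scale for Calca, 0.148 for Tac1 and 0.146 for Trpv1, and the medians for genes within 1 log2 unit of their level were 0.0999, 0.101 and 0.101. Of such genes, 72.5%, 83.5% and 82.2% had a smaller SD.

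Ratios of counts within a library, which do not depend on how libraries are scaled, compared the genes with each other. In TX SCI there were 0.269 ± 0.0118 Tac1 counts per Calca count (SD, n = 4), against 0.243 ± 0.0178 in CONT SCI (n = 6) and 0.249 ± 0.0135 in No SCI (n = 4). The log2 difference from CONT SCI was 0.15 (two-sided exact permutation p = 0.0286, adjusted p = 0.514 over 18 tests), which failed the correction. With 4 rats against 6 the smallest p this test can give is 0.00952, or 0.171 after the correction if it stood alone, and in the other sizes of groups compared that smallest adjusted value was between 0.0779 and 0.514. A single ratio difference could therefore not pass, and these p-values say little either way. Trpv1 counts per Calca count were 0.229 ± 0.0304 in TX SCI, 0.225 ± 0.0213 in CONT SCI and 0.244 ± 0.0196 in No SCI. Trpv1 counts per Tac1 count were 0.857 ± 0.147 in TX SCI, 0.931 ± 0.127 in CONT SCI and 0.983 ± 0.114 in No SCI, with a log2 difference of −0.21 between TX SCI and No SCI (two-sided exact permutation p = 0.200, adjusted p = 0.686). Leaving out 1 TX SCI rat moved that difference to −0.30 (without replicate 1) or −0.12 (without replicate 4). Tac1 per Calca was 0.264 ± 0.0192 in CONT SCI + SWW (n = 5), close to its value in TX SCI. Over the 3 ratios and 6 comparisons tested, adjusted permutation p-values ranged from 0.514 to 0.889, and the next lowest unadjusted p was 0.0857, for Tac1 per Calca in TX SCI against No SCI.

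Rats with more Calca than their group mean also tended to have more Tac1. Across 24 rats, deviations of log2 CPM from the group means had Pearson's r = 0.76 (permutation within groups, p = 0.00012, adjusted p = 0.00036 over 3 pairs) and Spearman's rho = 0.75 (permutation p = 0.00022, adjusted p = 0.00066). Without the 2 rats farthest from the median of Calca, r was 0.79. In the 6 CONT SCI rats alone r was 0.76 (exact permutation p = 0.0778) and rho was 0.71 (exact permutation p = 0.136). Both values of a rat come from the same library and the same pool of ganglia, and whether the rats differed in the share of nociceptors in that pool was not tested. Calca and Trpv1 had r = 0.47 (permutation p = 0.0392, adjusted p = 0.0587) and rho = 0.45 (permutation p = 0.0544, adjusted p = 0.0816), and r was 0.35 without the 2 farthest rats. Tac1 and Trpv1 had r = 0.26 (permutation p = 0.218, adjusted p = 0.218) and rho = 0.31 (permutation p = 0.156, adjusted p = 0.156), and r was 0.25 without the 2 farthest rats. In CONT SCI alone r was 0.50 for Calca and Trpv1 (exact permutation p = 0.311) and 0.11 for Tac1 and Trpv1 (exact permutation p = 0.825), with rho of 0.37 (exact permutation p = 0.497) and 0.14 (exact permutation p = 0.803).

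Among 15246 other genes, Tac1 was the 7th most correlated with Calca over the log2 CPM of all 24 libraries, and Calca was the 2nd most correlated with Tac1 (r = 0.79). In deviations from the group means Tac1 was 10th for Calca, and Calca was 98th for Tac1 (r = 0.76). Trpv1 ranked 117 for Calca (r = 0.64) and 789 for Tac1 (r = 0.43) over all libraries, and 834 (r = 0.47) and 4151 (r = 0.26) in deviations. The most correlated rows over all libraries were ENSRNOG00000008615 for Calca (r = 0.84), ENSRNOG00000013061 for Tac1 (r = 0.80) and ENSRNOG00000008428 for Trpv1 (r = 0.92). The last row was also the most correlated with Trpv1 in deviations from the group means (r = 0.91), whereas other rows came first in deviations for Calca (r = 0.85) and Tac1 (r = 0.87). These values describe 24 libraries in 5 groups, and the rows carry identifiers with no gene names.

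Because Calca and Tac1 varied together, the 250 bases before their annotated starts are shown, from RefSeq on the GRCr8 build, where all 3 genes were found by symbol. Calca lies on the minus strand, with the window at chr1:178317530-178317779, and Tac1 on the plus strand, at chr4:36645333-36645582. Capitals mark TGACGCAA, written in Tac1 as its reverse complement TTGCGTCA, and both windows are printed 5′ to 3′ along the gene.
Calca: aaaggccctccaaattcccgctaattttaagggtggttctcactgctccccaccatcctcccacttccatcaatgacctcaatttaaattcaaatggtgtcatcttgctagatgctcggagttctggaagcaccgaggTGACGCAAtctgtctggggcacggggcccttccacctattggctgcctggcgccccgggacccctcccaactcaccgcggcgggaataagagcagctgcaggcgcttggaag
Tac1: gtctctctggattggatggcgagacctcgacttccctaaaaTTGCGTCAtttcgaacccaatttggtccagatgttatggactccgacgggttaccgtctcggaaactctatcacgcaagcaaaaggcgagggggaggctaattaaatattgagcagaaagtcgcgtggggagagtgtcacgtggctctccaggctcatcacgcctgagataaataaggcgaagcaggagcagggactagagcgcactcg
The match starts at position 139 of the window in Calca and 42 in Tac1, counted from 1 at the 5′ end. Searched on both strands, TGACGCAA was in 0.436% of the 33469 promoter windows of this length and not in that of Trpv1 (chr10:58349686-58349935, plus strand). It was chosen after the Calca and Tac1 windows had been read. The share of windows with it therefore does not give the chance that these windows have some word in common. Whether it bears on their correlation was not tested. The exact letters of the cyclic AMP response element TGACGTCA (in 1.59% of windows) and the TATA box TATAAA (12.9%) were in none of the 3 windows. Variant forms of these elements were not searched, so their absence is not shown. The E-box CANNTG (65.5%) was in each, at 91 and 231 in Calca, 69 and 179 in Tac1 and 99 and 117 in Trpv1. A match describes letters in a window and not a site in use, and the counts were made on another build, Rn6.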

How the data were processed

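Libraries of poly-A RNA from whole DRG of 24 rats were made with a stranded kit and read from 1 end. The authors checked the reads with FastQC 0.10.1, aligned them to the Rn6 assembly with STAR 2.6, and counted reads per gene with HTSeq 0.10.0 on Ensembl build 93 without mitochondrial genes, and the deposited values are whole-number counts without normalization. Such counts do not separate the calcitonin and CGRP transcripts of Calca, and reads that Calca shares with its close paralog Calcb may have been lost, so its level is uncertain to that extent.

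From the counts, edgeR 4.0.16 in R 4.3.3 was fitted on the whole table: low counts were filtered with filterByExpr (at least 10 counts, and 15 in total), libraries scaled by TMM, and glmQLFTest p-values adjusted by Benjamini-Hochberg over all genes tested (threshold 0.05). No SCI, CONT SCI and TX SCI entered 1 fit, No SCI, CONT SCI and the exercised groups another, and all 24 samples the comparisons of TX SCI with exercised groups. The log2 CPM values used for correlations had a prior count of 2. Ratios and correlations were tested by permutation with scipy 1.17.1, exact between groups and with 100000 draws within groups. Alternatives were RLE scaling, DESeq2 1.42.0, no filter, fits of more or fewer groups, a replicate block, and leaving rats out. The rule for named genes took the 3 genes and, for each, the row most correlated with it. The members and lists were chosen with earlier results of these data known. The files do not pair identifiers with names, and 0 rows of the RefSeq gene table carried an Ensembl identifier, so the lists of 98 other genes (other nociceptor genes, peptide partners, TRP channels and markers of the cell types of DRG) were not analysed here, nor was the tissue checked against its markers. The labels name no sequencing batch.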

Additional observations from a re-analysis of the deposited data

Results flagged for a closer look

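Tac1 in No SCI replicate 4 was at 302.8 CPM, while the other 3 No SCI rats lay between 272.1 and 274.1, so its gap to the nearest rat took 0.935 of the range of the group. Trpv1 in CONT SCI + SWIM replicate 3 was at 283.5 CPM, while the other 4 swimming rats lay between 241 and 253, and its gap took 0.713 of the range. Dixon's 95% criterion for a sample far from the rest of its group set these 2 apart among 30 sets of values, the CPM of the 3 genes and their 3 ratios in 5 groups, and chance alone sets apart about 1 in 20 groups. Calca differed between the 2 kinds of injury, with a log2 fold change of −0.23 in TX SCI relative to CONT SCI by edgeR's quasi-likelihood test (adjusted p = 0.0219), in groups collected 8.5 and 11.5 weeks after injury. The difference did not pass without TX SCI replicate 1 (−0.20, edgeR adjusted p = 0.0651), and 40.4% of all genes passed the same comparison.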

How the results depend on the processing

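RLE scaling and DESeq2's Wald test left each of the 30 values of single genes on its side of the threshold and in its direction. Without a filter on low counts 29 of 30 stayed, and Calca in TX SCI against CONT SCI + SWIM had −0.25 (adjusted p = 0.0579). With all 24 samples in 1 fit 23 of 24 stayed, and Trpv1 in TX SCI against CONT SCI passed (−0.22). With only the 2 groups compared 28 of 30 stayed, and Calca in TX SCI against No SCI (−0.21) and Tac1 in CONT SCI + SWW against No SCI (0.21) passed. The cause was not tested for these changes. Without No SCI replicate 3 and CONT SCI replicate 4, a setting chosen after seeing the data, Calca in TX SCI against No SCI (−0.23), Trpv1 in TX SCI against CONT SCI (−0.23) and Tac1 in CONT SCI + SWW against CONT SCI (0.25) passed. There, 4 values near 0 changed sign: Calca (−0.032) and Tac1 (−0.048) in CONT SCI against No SCI, and Calca in CONT SCI + SWIM (−0.0025) and Trpv1 in CONT SCI + SWW (−0.074) against No SCI.

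The replicate numbers belong to different animals and do not pair them: over 43 same-numbered pairs the correlation of deviations from the group means ran from −0.24 to 0.28, and in 7 of 43 the rat correlated best with the one of its own number. With the number as a block, 26 of 30 values stayed, Trpv1 in TX SCI against No SCI (−0.28), Calca in TX SCI against CONT SCI + SWIM (−0.25) and Tac1 in TX SCI against CONT SCI + SWW (−0.28) no longer passed, and Calca in CONT SCI + SWIM against CONT SCI became −0.032. The block moved the count of genes called between the exercised groups from 454 to 251, and the other counts by less than 1.5 times.

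Leaving out each rat in turn kept 252 of 288 values of single genes. The log2 fold change of TX SCI against No SCI ran from −0.23 to −0.15 for Calca and from −0.37 to −0.23 for Trpv1. Against CONT SCI it ran from −0.28 to −0.20 for Calca and from −0.26 to −0.17 for Trpv1. Against CONT SCI + SWIM it ran from −0.30 to −0.21 for Calca, and against CONT SCI + SWW from −0.35 to −0.21 for Tac1 and from −0.36 to −0.27 for Trpv1. CONT SCI against No SCI ran from −0.00076 to 0.087 for Calca, from −0.038 to 0.060 for Tac1 and from −0.17 to −0.024 for Trpv1. CONT SCI + SWIM against CONT SCI ran from −0.045 to 0.058 for Calca and from −0.074 to 0.029 for Trpv1. CONT SCI + SWW ran from 0.14 to 0.24 for Tac1 against CONT SCI and from −0.067 to 0.083 for Trpv1 against No SCI.

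Of the counts of genes called, CONT SCI against No SCI (1578) ran from 1041, without No SCI replicate 2, to 1552. TX SCI against CONT SCI + SWIM (2193) ran from 1333 to 1997 and TX SCI against CONT SCI + SWW (3359) from 2026 to 3654, both lowest without TX SCI replicate 4. The count between the exercised groups ran from 123 without CONT SCI + SWIM replicate 3 to 811 without CONT SCI + SWW replicate 5. It was 214 without CONT SCI + SWIM replicate 2 and 187, 207 and 149 without CONT SCI + SWW replicates 2, 3 and 4, and it was 821 with DESeq2 and 968 without No SCI replicate 3 and CONT SCI replicate 4.

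When rats were left out, 4 ratio differences near 0 changed sign: Tac1 per Calca in CONT SCI against No SCI (−0.060 to 0.00088), Trpv1 per Calca in TX SCI (−0.046 to 0.086) and in CONT SCI + SWW (−0.027 to 0.080) against CONT SCI, and Trpv1 per Tac1 between the exercised groups (−0.072 to 0.029). The correlations kept their sign under RLE scaling and without the farthest rats.

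With 4 to 6 rats in a group, the calls near the threshold each rest on few rats. Depth did not limit these genes. Counts of whole ganglia give neither the number of nociceptors nor peptide or channel protein, and time of collection cannot be told apart from injury or exercise in most pairs.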
